A study of Homo sapiens with 2 samples.

Results

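The SRC family kinases and the cytoplasmic tyrosine kinases that work with them were examined in H322c cells, an established NSCLC cell line, on 2 Affymetrix U133 Plus 2.0 arrays. The set comprised 10 genes chosen by name, SRC, YES1, FYN, LYN, LCK, FRK, CSK, PTK2, PTK2B and PTK6, with every probe set whose single annotated gene was one of them. This gave 31 probe sets of the 54675 on the array and 10 of the 19775 genes that had a probe set of their own. Cells were plated 24 hrs ahead of treatment and then kept for 4 days in RPMI medium with 10% serum that contained either 1 µM gefitinib, a small molecule inhibitor of the EGFR kinase, or 0.1% DMSO as the vehicle control. There was 1 array per condition from a single cell line, so no test was possible, no p-value was computed and every difference describes these 2 arrays. The comparison asks which of these kinases differed in mRNA level after EGFR inhibition.

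SRC family kinases sit on the inner face of the plasma membrane and relay signals from growth factor receptors, EGFR among them, and from integrins. They are held inactive when CSK phosphorylates a tyrosine in their C-terminal tail, and phosphatases such as PTPRA remove that phosphate. Focal adhesion kinase, encoded by PTK2, is recruited by integrins and binds SRC, and the pair phosphorylates scaffolds of the BCAR1 and NEDD9 kind at sites of adhesion. PTK2B encodes PYK2, the calcium-responsive relative of focal adhesion kinase. FRK and PTK6 (BRK) are SRC-related kinases found mainly in epithelial cells. An mRNA array measures none of the phosphorylation by which these kinases are switched on and off.

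The deposited values were MAS5 signals on a linear scale. Signals under 100 were set to 100 on both arrays, and a probe set was counted as measured where it reached this floor on at least 1 array. Where a gene had several measured probe sets, the brightest over both arrays stood for the gene. A difference was counted from 2-fold, which is 1 on the log2 scale. A fold with 1 signal under the floor is a lower bound, and its direction was fixed by the array that reached the floor. By these criteria 17 of the 31 probe sets and 9 of the 10 kinases were measured, against 11223 genes in all. There being no replicates, the measure of spread was how far probe sets that read 1 gene differed in log2 ratio, an SD of 0.54 over 4610 genes where several reached the floor on both arrays. It carries no information on the spread between cultures. In bulk RNA, a change in the share of cells that express a gene and a change in RNA per cell cannot be told apart.

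CSK was the only one of the 9 measured kinases whose signal differed by 2-fold or more at its brightest probe set, and it was higher with gefitinib. That is 1 of 9 kinases at least 2-fold higher, where 13.3% of all measured genes were, and 0 of 9 at least 2-fold lower, where 6.20% of all measured genes were. The other 8 kinases were within 2-fold. Of the 9, 6 were higher on the gefitinib array (SRC, FYN, FRK, CSK, PTK2 and PTK6) and 3 were lower (YES1, LYN and PTK2B). Their median log2 ratio was 0.43 (0.24 to 0.71 over 5 ways of scaling the arrays), and that of all measured genes was 0.12. From 1.5-fold, 4 of 9 kinases (CSK, FRK, FYN and PTK6) were higher, against 26.4% of all measured genes, and 1 of 9 (LYN) was lower, against 15.0%. The 1.5-fold counts are as deposited and changed with the scaling of the arrays.

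**Figure D1:**
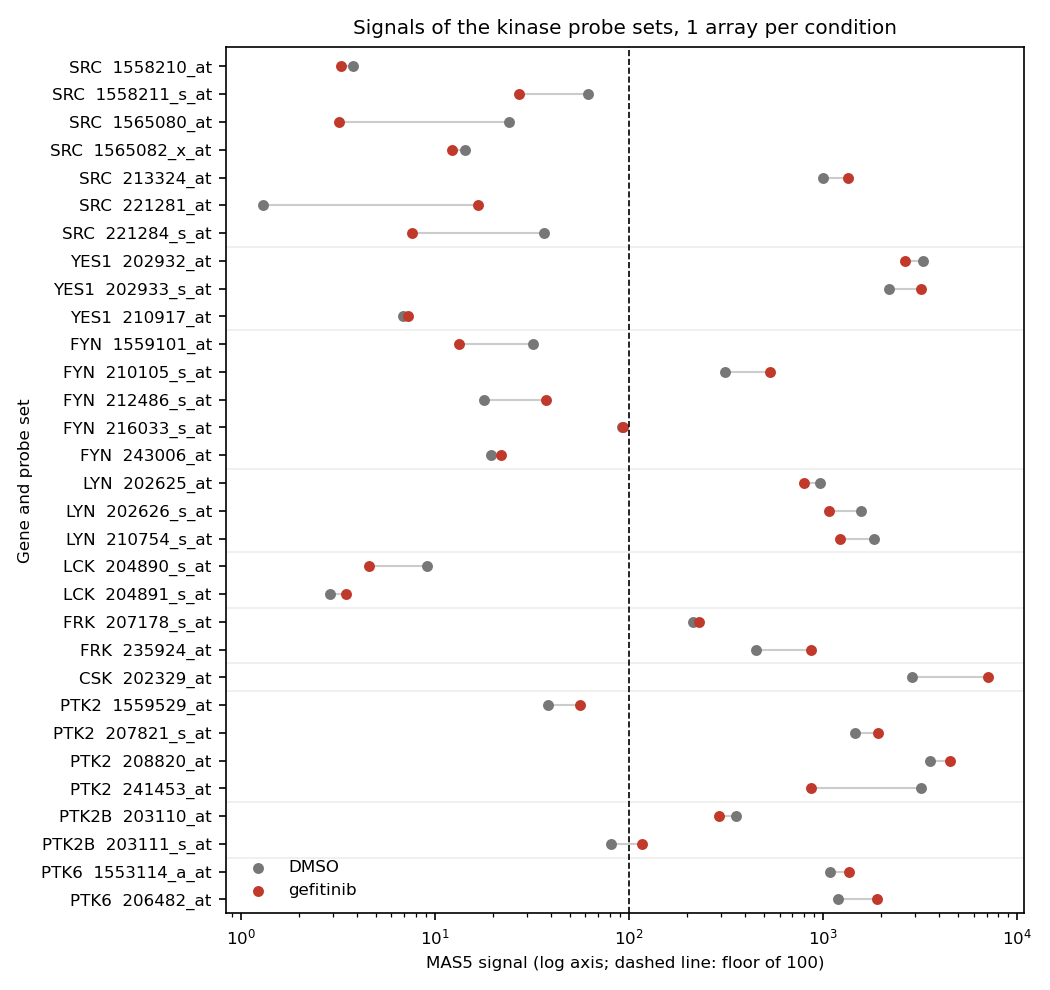
MAS5 signal (horizontal log axis) of the 31 probe sets of the 10 kinases (vertical axis) for DMSO (grey points) and gefitinib (red points), 1 array each, with the floor of 100 as a dashed line. CSK 202329_at moves to the right from 2883.4 to 7098.8, PTK2 241453_at moves to the left from 3225.3 to 870.0, and both LCK probe sets lie under 10.

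CSK, the kinase that phosphorylates the inhibitory tail tyrosine of SRC family members, went from 2883.4 on the DMSO array to 7098.8 on the gefitinib array at 202329_at. This is 2.46-fold higher with gefitinib (log2 ratio 1.30). The log2 ratio of CSK was higher than that of 92.46% of all measured genes and ranked 846 among them. Over the 5 scalings of the arrays that were compared (as deposited, quantile normalization, and scaling to control probe sets, GAPDH or spike-ins) the ratio of CSK ran from 2.16 to 2.99, so it stayed above 2-fold in each. The value rests on a single probe set, the only one for CSK, and could not be set against another. MATK, which encodes the CSK-related kinase CHK, was below the floor on both arrays, with no signal above 29.9.

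SRC itself was within 2-fold. Its probe set 213324_at read 1006.0 for DMSO and 1356.9 for gefitinib, which is 1.35-fold higher (log2 ratio 0.43), and its log2 ratio ran from 0.24 to 0.71 over the scalings. The difference was smaller than the spread of 0.54 between probe sets of a gene. The other 6 SRC probe sets were under the floor on both arrays, the brightest of them 1558211_s_at with 61.9 and 27.3, so the level of SRC was also read from a single probe set.

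YES1, the close relative of SRC that is expressed in most cell types, had measured probe sets that differed in direction. Probe set 202932_at read 3275.6 for DMSO and 2665.3 for gefitinib, 1.23-fold lower (log2 ratio -0.30). Probe set 202933_s_at read 2204.5 and 3217.3, 1.46-fold higher (log2 ratio 0.55). The mean of both was 0.12, and the SD between them, 0.60, exceeded either value in size, so no direction could be given for YES1. Its remaining probe set, 210917_at, was near 7 on both arrays.

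FYN, a SRC family member that couples receptors and adhesion molecules to the cytoskeleton, went from 316.0 to 534.0 with drug at 210105_s_at. It was 1.69-fold higher (log2 ratio 0.76), a difference larger than the spread between probe sets of a gene and under 2-fold. After GAPDH scaling the ratio was 2.05, which is past 2-fold. The other 4 FYN probe sets were under the floor on both arrays. Of these, 216033_s_at lay just under it, with 92.8 and 94.2.

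LYN, a family member best known from B cells and myeloid cells and also expressed in epithelial cells, was lower with gefitinib at each of its 3 probe sets. Probe set 210754_s_at read 1852.6 for DMSO and 1229.2 for gefitinib, 1.51-fold lower (log2 ratio -0.59). At 202626_s_at it was 1586.1 and 1076.8, 1.47-fold lower, and at 202625_at it was 965.6 and 799.2, 1.21-fold lower. LYN was thus the lowest of the 9 kinases, with 14.73% of all measured genes below it. Its probe sets had an SD of 0.18 in log2 ratio, the smallest among the 6 kinases with more than 1 measured probe set. With the arrays scaled to GAPDH, the log2 ratio of 202625_at was 0.01, while the other LYN probe sets kept their direction under all 5 scalings.

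LCK, the SRC family kinase of T cells, was not detected above the floor. Its probe sets had signals of 9.1 and 2.9 with DMSO and 4.6 and 3.5 with gefitinib. The relatives outside the set were likewise unmeasured. FGR and BLK, kinases of myeloid and B cells, and SRMS, a relative of PTK6, had no signal above 26.3, 28.2 and 9.1, respectively.

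FRK, an epithelial kinase that resembles SRC in its domains, was higher at the brighter of its probe sets. Probe set 235924_at read 454.1 for DMSO and 876.2 for gefitinib, 1.93-fold higher (log2 ratio 0.95). At 207178_s_at it was 216.0 and 230.4, 1.07-fold higher. The second value had a log2 ratio of 0.09 as deposited, -0.13 after quantile normalization and -0.10 after spike-in scaling, so its direction was not settled. At 235924_at the ratio ran from 1.69 to 2.34 over the scalings, past 2-fold after centring on control probe sets and after GAPDH scaling. The mean over both probe sets was 0.52 on the log2 scale.

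PTK6, a kinase of differentiating epithelium that also acts downstream of EGFR family receptors, was higher at both of its probe sets by less than 2-fold. Probe set 206482_at read 1208.0 for DMSO and 1911.3 for gefitinib, 1.58-fold higher (log2 ratio 0.66). At 1553114_a_at it was 1094.2 and 1365.8, 1.25-fold higher (log2 ratio 0.32). Both kept this direction under all 5 scalings, and over them the log2 ratio of 206482_at ran from 0.47 to 0.94.

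PTK2, which encodes focal adhesion kinase, had the widest disagreement between probe sets of the 9 kinases. Probe set 208820_at read 3582.3 for DMSO and 4551.7 for gefitinib, 1.27-fold higher (log2 ratio 0.35). At 207821_s_at it was 1462.4 and 1921.4, 1.31-fold higher (log2 ratio 0.39). These 2 probe sets were alike in direction and size. Probe set 241453_at read 3225.3 for DMSO and 870.0 for gefitinib, 3.71-fold lower (log2 ratio -1.89). Only 1.43% of all measured single-gene probe sets had a lower log2 ratio than 241453_at, and it was the only one of the 17 kinase probe sets at least 2-fold lower, where 7.26% of all measured single-gene probe sets were. Its log2 ratio ran from -2.08 to -1.61 over the scalings. The SD between the 3 probe sets was 1.31, above the 0.54 seen over all genes, and with their mean in place of the brightest the log2 ratio of PTK2 was -0.38. Which part of the PTK2 transcripts each probe set reads was not examined here, and the cause of the disagreement was not tested. The remaining probe set, 1559529_at, was under the floor with 38.5 and 56.5.

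PTK2B, the gene of PYK2, was within 2-fold at its brightest probe set. Probe set 203110_at read 358.0 for DMSO and 293.6 for gefitinib, 1.22-fold lower (log2 ratio -0.29). Probe set 203111_s_at read 80.8 and 117.3, higher by 1.17-fold or more, since the DMSO signal was under the floor. The difference at 203110_at was within the spread between probe sets of a gene, and the bound at 203111_s_at leaves its size unknown. Since 203111_s_at reached the floor only with gefitinib, it could only come out higher. Its opposite direction to 203110_at therefore carries no information.

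**Figure D2:**
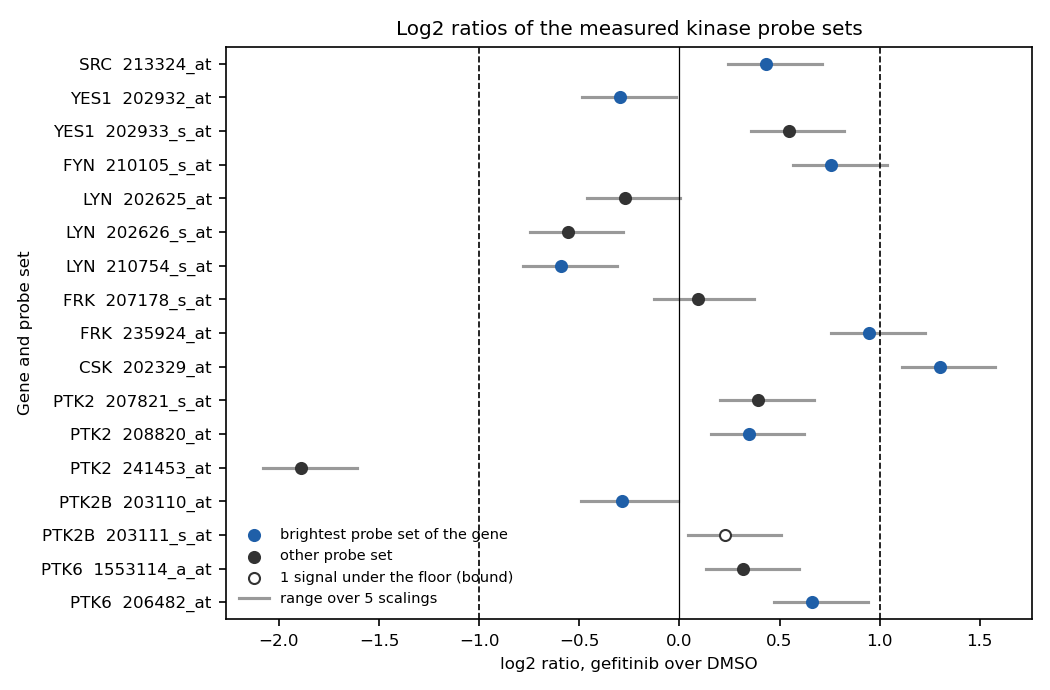
Log2 ratio, gefitinib over DMSO, on the horizontal axis for the 17 measured kinase probe sets (vertical axis), 1 array per condition. Blue points stand for the gene, black points are its other probe sets, the open point has 1 signal under the floor, grey bars give the range over the 5 scalings and dashed lines mark 2-fold; only CSK 202329_at (1.30) and PTK2 241453_at (-1.89) lie outside them as deposited.

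Probe set by probe set, 11 of the 17 were higher with gefitinib and 6 were lower. At least 2-fold higher was 1 (CSK), where 12.1% of all measured single-gene probe sets were, and 1 (PTK2 241453_at) was at least 2-fold lower. From 1.5-fold, 4 were higher and 2 lower, against 24.8% and 16.6% of all measured single-gene probe sets. Of the 6 kinases with more than 1 measured probe set, LYN, FRK and PTK6 had all of them in 1 direction as deposited, and YES1, PTK2 and PTK2B did not. The log2 ratio of FRK 207178_s_at was -0.13 after quantile normalization and -0.10 when scaled to spike-ins, and that of LYN 202625_at was 0.01 with GAPDH scaling. Ordered by the log2 ratio of the brightest probe set, the kinases ran from CSK (1.30) through FRK (0.95), FYN (0.76), PTK6 (0.66), SRC (0.43) and PTK2 (0.35) to PTK2B (-0.29), YES1 (-0.30) and LYN (-0.59). Neighbours in this order were 0.35 apart or less, within the spread of 0.54 between probe sets, except for the gap of 0.63 between PTK2 and PTK2B. The direction of PTK2, YES1 and PTK2B depended on the probe set.

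The scaling of the arrays moved the median of all genes. The median log2 ratio of all measured genes was 0.12 as deposited, 0.06 with quantile normalization, -0.07 when scaled to spike-ins, 0.24 after centring on control probe sets and 0.38 after GAPDH scaling. Of the genes past 2-fold, 68.2% were higher with gefitinib as deposited, against 50.5% with spike-in scaling and 85.6% with GAPDH scaling. Relative to the median of all genes as deposited, the log2 ratio was 1.18 for CSK, 0.83 for FRK, 0.64 for FYN and 0.55 for PTK6. On the same basis it was 0.32 for SRC, 0.23 for PTK2, -0.40 for PTK2B, -0.41 for YES1 and -0.71 for LYN.

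**Figure D3:**
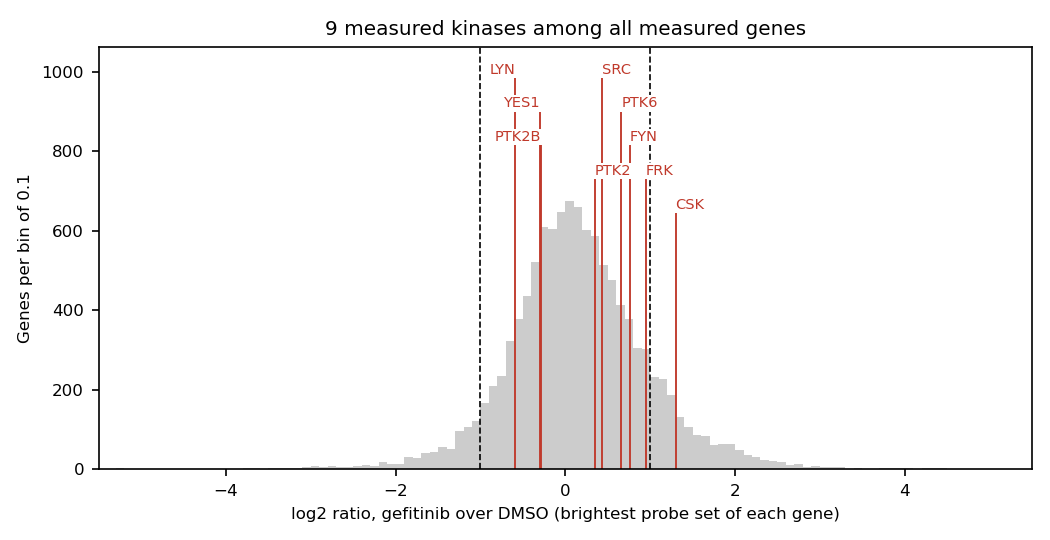
Histogram of log2 ratios, gefitinib over DMSO (horizontal axis, bins of 0.1) for the 11223 measured genes (vertical axis, genes per bin), 1 array per condition. Red lines mark the 9 measured kinases, from LYN at -0.59 to CSK at 1.30, and dashed lines mark 2-fold; the height of a red line carries no value.

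The partners of these kinases were described from 5 lists with 77 genes in all, of which 54 were measured. Of these, 7 (13.0%) were at least 2-fold higher, 2 (3.70%) were at least 2-fold lower and 45 were within 2-fold, with a median log2 ratio of 0.17. Both shares lay at or under those of all measured genes, 13.3% and 6.20%. CTNND1, CRK, PTPRJ and BMX had no probe set paired with them alone here.

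Of 14 regulators of SRC activity, 9 were measured, 1 was at least 2-fold higher and 0 were lower. PTPRA, the receptor phosphatase that removes the inhibitory tail phosphate of SRC family kinases, went from 347.1 to 795.8 with drug, 2.29-fold higher. Its log2 ratio was 1.20 and ran from 1.01 to 1.48 over the scalings. CSK and PTPRA, which act on the same tail tyrosine in opposite ways, were thus both more than 2-fold higher on the gefitinib array. Each was read from a single measured probe set, and the other PTPRA probe sets were under the floor on both arrays. The adaptor PAG1, which brings CSK to the membrane, was under the floor on both arrays, with no signal above 85.8. The ubiquitin ligase CBL was 1.81-fold lower, from 1254.6 to 693.8, at its brightest probe set and 1.77-fold lower at 225234_at. Its other measured probe sets, 229010_at and 243475_at, reached the floor only with DMSO, so they could only come out lower. With spike-in scaling CBL was past 2-fold lower (log2 ratio -1.04). PTPN1 (log2 ratio -0.49) and PTPN2 (0.61), phosphatases of many tyrosine kinases, were within 2-fold. The median of the 9 was -0.34. With GAPDH scaling, which raised the number measured from 9 to 12 of the 14, it was 0.04. That scaling changes the gefitinib array alone, so the added genes reached the floor only there and their ratios had to be positive. The 2 medians cover different genes.

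Of 24 focal adhesion partners, 19 were measured, 3 were at least 2-fold higher and 1 was lower, with a median log2 ratio of 0.42. NEDD9, the scaffold related to BCAR1 that focal adhesion kinase and SRC phosphorylate, went from 410.0 to 1471.3 with drug, 3.59-fold higher. It was also 2.01-fold higher at 202150_s_at and at least 1.70-fold higher at 1569020_at, which reached the floor only with gefitinib. BCAR1 itself was 1.52-fold lower, from 379.3 to 250.1, at its single measured probe set. The adhesion protein TNS3 was 3.29-fold higher, from 1464.5 to 4811.9, also at a single measured probe set. ARHGAP35, a GTPase-activating protein and SRC substrate, was 3.09-fold higher at 229394_s_at, from 1593.4 to 4928.4. At 202044_at, 202046_s_at and 202045_s_at it was higher by log2 ratios of 0.36, 0.77 and 1.08. Probe set 229397_s_at reached the floor only with gefitinib, so its log2 ratio of 0.13 is a bound. The adaptor GRB7, which binds focal adhesion kinase and EGFR family receptors, was 3.16-fold lower, from 3393.1 to 1074.2, at its only probe set.

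Of 18 substrates and adaptors of SRC and PTK6, 17 were measured and had a median log2 ratio of 0.03 (-0.16 with spike-in scaling), with 1 at least 2-fold higher and 0 lower at their brightest probe sets. DOK4, a docking protein, was 2.75-fold higher, from 381.0 to 1048.5. AFAP1, an actin filament protein that binds SRC (log2 ratio 0.90), the SHC1 adaptor (-0.74) and ARAP1 (0.66), a PTK6 substrate, were within 2-fold. AFAP1, with a DMSO signal of 112.6 near the floor, was past 2-fold after control probe set centring (1.02) and GAPDH scaling (1.17). With the mean over probe sets in place of the brightest, 4 genes of this list were at least 2-fold lower, where 5.60% of all measured genes were under that setting. These 4 genes follow. They were chosen after their values were seen, and their probe sets disagreed in size. CDCP1, a transmembrane substrate of SRC, was at 2528.2 and 2626.4 at 218451_at, 1.04-fold higher, and at 2279.3 and 93.2 at 1554110_at, at least 22.8-fold lower. At another measured probe set, 234932_s_at, it was at 452.9 and 392.3, 1.15-fold lower. CTTN, the actin-binding SRC substrate cortactin, was 1.29-fold lower at its brightest probe set 201059_at, 5.51-fold lower at 214073_at and 3.83-fold lower at 214074_s_at. EZR, the membrane-cytoskeleton linker ezrin, was 1.37-fold lower at its brightest probe set and between 2.11- and 3.07-fold lower at the other 3 measured ones. The log2 ratios of SHC1 were -0.74 and -1.51. Disagreement between probe sets was not limited to lower values. The log2 ratios of DOK4 ran from a bound of 0.51 to 1.79 and those of SFPQ from -0.43 to 0.87. Among the focal adhesion partners, GIT2 ran from -0.84 at its brightest probe set to a bound of 2.09 at 225558_at.

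Of 17 other cytoplasmic tyrosine kinases, 9 were measured, 2 were at least 2-fold higher and 1 was lower, with a median log2 ratio of 0.25. SYK, best known from B cell receptor signaling and also expressed in epithelium, was 2.65-fold higher, from 378.5 to 1001.6, at its brightest probe set. It was 2.17-fold higher at 226068_at and at least 1.18-fold higher at 209269_s_at, which reached the floor only with gefitinib. The mean over its probe sets (log2 ratio 0.92) was within 2-fold but includes that bound. TNK1 was 2.37-fold higher, from 321.2 to 760.0, and both of its probe sets end in _x_at, so it was not measured where such probe sets were left out. JAK2, a kinase of cytokine receptors, was 2.05-fold lower, from 209.5 to 102.1, close to the floor, and its second probe set had a log2 ratio of -0.04. JAK2 was within 2-fold after centring on control probe sets (-0.91), GAPDH scaling (-0.76), with log2 of signal plus 50 (-0.77) and as the mean over probe sets (-0.54). With that mean ABL2 was past 2-fold lower (-1.12), where 5.6% of all measured genes were. ABL2 was named after its value was seen. Its log2 ratios were -0.76 at the brightest probe set, -0.68 at 226893_at and a bound of -1.93 at 206411_s_at. FER was 1.71-fold lower at its brightest probe set and 1.72-fold higher at 227579_at. The leukocyte kinases ZAP70, BTK and TXK were under the floor on both arrays.

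**Figure D4:**
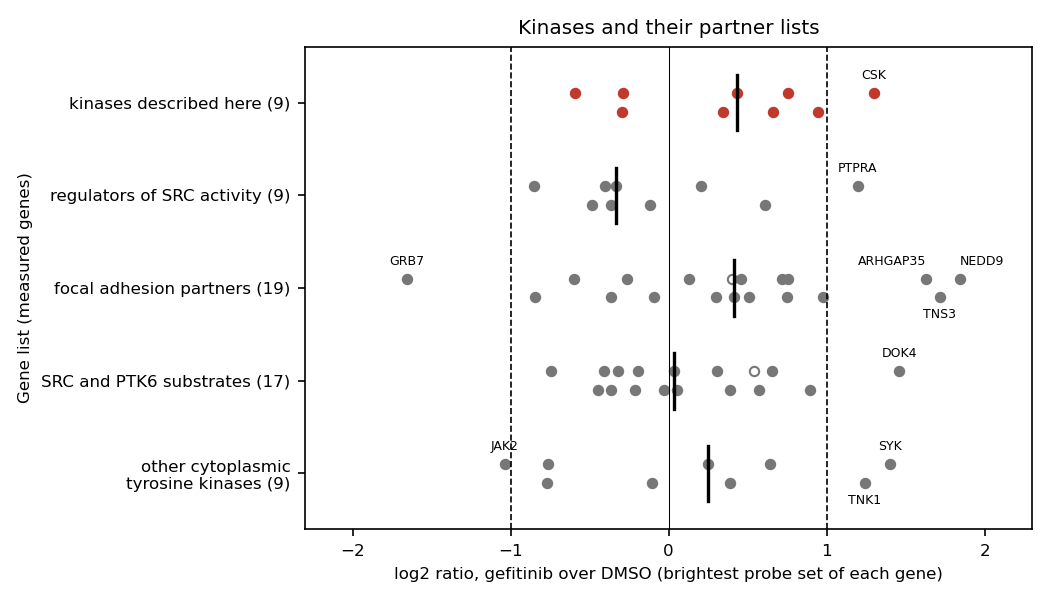
Log2 ratio, gefitinib over DMSO, at the brightest probe set (horizontal axis) for the 9 measured kinases (red) and for 4 lists of their partners (grey), 1 array per condition, with gene numbers in parentheses. Each point is a gene, open points are bounds, black bars are list medians (0.43 for the kinases) and dashed lines mark 2-fold; genes outside them are named.

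H322c cells are labelled as NSCLC, a carcinoma of lung epithelium, and both arrays held epithelial transcripts. All 8 epithelial markers (EPCAM, CDH1, KRT7, KRT8, KRT18, KRT19, CLDN4 and ESRP1) were measured on both arrays, and all were within 2-fold. Their summed signal, taking the highest probe set of each gene on each array separately, was 154755.4 with DMSO and 128498.0 with gefitinib. Of 10 leukocyte markers, 1 reached the floor with DMSO and 0 with gefitinib, with sums of 606.5 and 257.2. LAPTM5 was the one that did, at least 3.69-fold lower with gefitinib, while PTPRC, CD3D and CD3E, which define leukocytes and T cells, had no signal above 24.0, 25.9 and 45.2. Of 6 fibroblast markers only COL1A1 reached the floor, 2.26-fold higher at its brightest probe set, and the sums were 627.9 and 1014.6. These sums take different COL1A1 probe sets. The one highest with DMSO, 217430_x_at, read 531.4 and 587.1, 1.10-fold higher. Of 5 endothelial markers 1 reached the floor on each array, PECAM1 with DMSO and VWF with gefitinib, with sums of 180.6 and 613.5. VWF was at least 4.96-fold higher, and CDH5, TEK and KDR were under the floor. The part of these marker differences in the kinase values was not tested. The ratio of 3' to 5' signal for GAPDH was 0.95 on the DMSO array and 1.01 on the other, and that for ACTB was 1.19 and 1.36.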

How the data were processed

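RNA of H322c cells from 1 DMSO and 1 gefitinib culture was hybridized to 1 array each. The authors deposited signal intensities on a linear scale, and per the labels these came from MAS5, version not given in the sources used. The program corrects for background and mismatch signal and scales each array by 1 factor, and on both arrays the deposited intensities had a 2% trimmed mean of 500.1. Such scaling can mask or distort a shift of most transcripts in 1 direction. The number of arrays limits the precision.

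The platform annotation paired 41097 of 54675 probe sets with 1 gene and 1801 with several, and 11777 were not listed. Symbols were updated through gene identifiers of the GRCh38.p14 annotation (41043 matched), and no coordinates were used. The floor was 100, the threshold 2-fold, and log2 ratios are of gefitinib over DMSO. Percentages of all genes and probe sets cover measured ones with 1 gene. The text names every member, and from each of 5 partner lists up to 4 genes, those with the largest absolute log2 ratio. BCAR1, PAG1, MATK and other genes named beside them were added, and some listed genes are not reported here. The members, lists and alternatives were chosen with earlier results of these data known. The procedure was tested on simulated data. Python 3.11.15, numpy 2.4.6, pandas 2.3.3 and matplotlib 3.10.9 were used. The alternatives were 4 scalings, floors of 50 and 200, log2 of signal plus 50 unfloored, the probe set mean, removal of _x_at probe sets, and a threshold of 1.5-fold.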

Additional observations from a re-analysis of the deposited data

How the results depend on the processing

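With 1 array per condition, no array could be left out. No paired analysis was possible because each group held 1 sample and no test was made. Of the 9 kinases, 2 were at least 2-fold higher after centring on control probe sets (CSK and FRK) and 3 after GAPDH scaling (CSK, FRK and FYN), against 1 as deposited. Of all measured genes, 16.6% and 20.9% were at least 2-fold higher under these scalings, against 13.3% as deposited. The number of kinase probe sets at least 2-fold higher was likewise 2 and 3. With a 1.5-fold threshold, 4 kinases and 4 probe sets were higher, 1 kinase and 2 probe sets were lower. This holds for the signals as deposited. FYN was under 1.5-fold with quantile normalization and spike-in scaling, and PTK6 with spike-in scaling. LYN was under it with control probe set centring and GAPDH scaling. With GAPDH scaling SRC and PTK2 were also past 1.5-fold higher. The log2 ratio of PTK2 was -0.38 as the mean over probe sets. Every other alternative left the 2-fold counts as they were, and the median of the 9 kinases ran from 0.24 to 0.71.

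The alternatives for the partner genes were chosen after seeing the data. As deposited, 7 partner genes were at least 2-fold higher and 2 lower. The number higher was 9 with control probe set centring, 11 with GAPDH scaling and 15 with a 1.5-fold threshold. Of all measured genes, 16.6%, 20.9% and 26.4% were higher under these settings. It was 5 with the mean over probe sets and 6 without _x_at probe sets, where 11.0% and 13.5% of all genes were. The number was 8 with the floor of 50 or log2 of signal plus 50, where 14.2% and 12.7% were. How many partner genes were measured also changed with some settings. The number lower was 1 with control probe set centring, GAPDH scaling, a floor of 200 or log2 of signal plus 50. Of all measured genes, 4.82%, 3.53%, 6.09% and 5.87% were lower under these settings. The partner number was 3 with quantile normalization, 4 with spike-in scaling, 6 with the mean over probe sets and 8 with a 1.5-fold threshold. The shares of all measured genes that were lower were then 7.26%, 9.25%, 5.6% and 15.0%. With the floor of 200 the log2 ratios of AFAP1 and JAK2 became bounds of 0.07 and -0.07. With the mean over probe sets those of ARHGAP35, NEDD9, FER and SYK were 0.79, 1.21, 0.03 and 0.92. The means of ARHGAP35, NEDD9 and SYK include a bound. Values close to the floor, such as those of PTK2B 203111_s_at, are limited by low signal.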
